A study of Mus musculus with 6 samples.

Results

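The genes described here encode the proteases that cut the extracellular matrix and the proteins that hold those proteases in check. A list of 43 mouse genes was set, and a gene entered when a probe on the array carried its symbol or a synonym. This gave 39 members among the 20289 genes with a probe, and each was represented by its brightest probe over all 6 arrays. Mmp15, Adam19, Adamts2 and Adamts5 had no probe named for them and were not analysed here. The cells were mouse embryonic fibroblasts (MEFs) of strain C57BL6 from embryos of day 13.5. In 3 of the samples the cells stably expressed a short hairpin RNA (shRNA) against Ube2o, and in the other 3 a hairpin against GFP, the control, so that every sample carried a hairpin. Ube2o encodes a ubiquitin-conjugating enzyme, and the comparison asks which genes differ between cells with the Ube2o hairpin and control cells. All Ube2o arrays carry the name sh41 in the labels, where 1 further label calls the agent an siRNA. With only that hairpin, effects of lower Ube2o, other effects of the hairpin and differences between the cell preparations cannot be told apart. The submitters call the 3 cell preparations of a group independent, and the embryos they came from are not named. The p-values therefore reflect the spread among these 6 samples alone, part of which may be technical.

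Matrix metalloproteinases (MMPs) are zinc-dependent enzymes that are made as inactive proforms and, once activated, cleave collagens, gelatin, proteoglycans and other matrix proteins. Tissue inhibitors of metalloproteinases (TIMPs) bind the active site of these enzymes. The related ADAM proteins shed receptors and ligands from the cell surface, ADAMTS proteins are secreted and cut proteoglycans and procollagens, and the plasminogen activators generate plasmin, which degrades fibrin and activates some MMP proforms. Fibroblasts are a main source of many of these proteins in connective tissue.

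RNA was measured on single-colour Illumina arrays, with a median deposited signal of 153, 172.5 and 167.9 on Ube2o shRNA arrays and 168.9, 164.3 and 173.6 on GFP shRNA arrays. A probe was called above background when its signal exceeded a limit inferred from the dim probes of its own array, which lay between 159.5 and 179.8. Between 43.1% and 44.9% of probes were above background. The Ube2o probe fell by 1.45 on the log2 scale with Ube2o shRNA (SE 0.12, limma adjusted p = 3e-07), with normalized log2 intensities of 9.48, 9.46 and 9.21 on Ube2o shRNA arrays and 10.86, 10.82 and 10.82 on GFP shRNA arrays. All 10 fibroblast markers on the list, among them Col1a1, Pdgfra and Thy1, were above background on every array. Of these, Pdgfra fell (log2 change -0.76, limma adjusted p = 0.000324) and 9 did not pass. Their summed normalized level, on a linear scale, lay between 79386 and 84331 on Ube2o shRNA arrays and between 74797 and 78592 on GFP shRNA arrays. Precision is limited by the number of arrays.

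Of the 39 members, 5 were lower and 1 was higher with Ube2o shRNA (limma, Benjamini-Hochberg adjusted p below 0.05 over all 45281 probes). Adamts9, Mmp9, Adamts7, Mmp11 and Timp1 fell, and Timp3 rose. The falls make up 12.8% of the members, where 3.96% of all genes were lower. The rise makes up 2.56% of the members, near the 2.92% of all genes that were higher. The members were chosen with earlier results of these data known, so their shares are no independent evidence of a direction. With the arrays scaled by their medians, the members called were these 6 genes as well, while 4.96% of all genes were lower and 1.57% higher. Of the 30 members above background on all 6 arrays, the same 6 genes were called, against 7.14% of such genes lower and 5.89% higher in the whole set. The median log2 change over the 39 members was -0.06, and that over all genes was 0.003. The normalized values of the groups did not overlap for 14 members that lay lower and 6 that lay higher with Ube2o shRNA, where 12.9% and 12.7% of all genes did so.

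**Figure D1:**
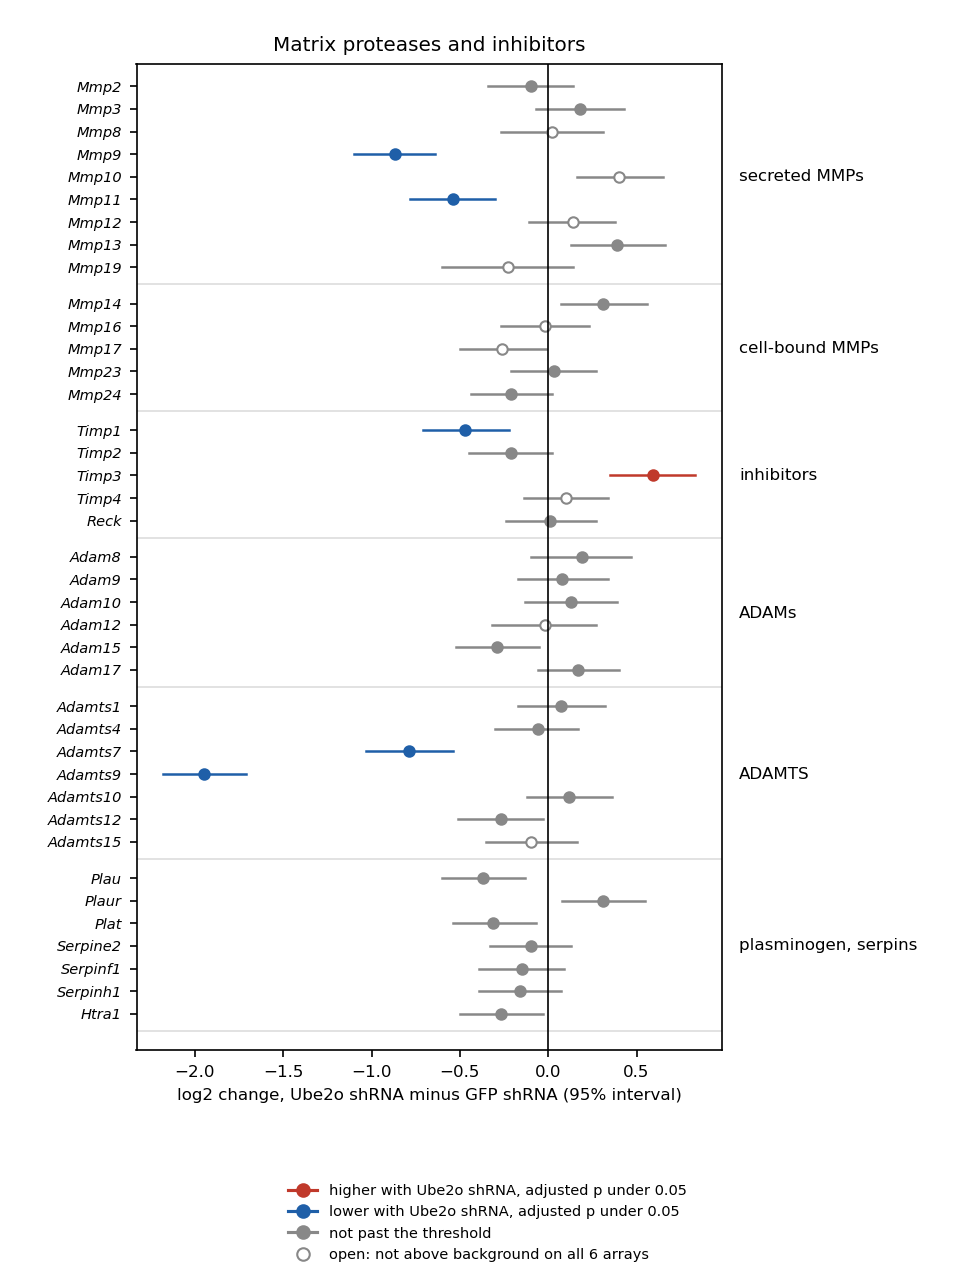
Log2 change (Ube2o shRNA minus GFP shRNA, horizontal axis) of the 39 members, grouped by role, with 95% intervals from the fit. Points in blue and red passed the threshold, and open points were not above background on all 6 arrays. Adamts9 stands at -1.95, and the only point in red is Timp3 at 0.59.

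Among the ADAMTS proteases, 2 of 7 members fell (28.6%, where 3.96% of all genes were lower) and 5 did not pass. A group this small says little about the family as a whole. Adamts9, a secreted protease that cleaves the proteoglycans aggrecan and versican, fell the most of all members by its brightest probe. Its deposited signals were 262, 325 and 316 on Ube2o shRNA arrays, against 898, 986 and 1157 on GFP shRNA arrays. Every Ube2o shRNA array lay far below every control, and still above background. The mean normalized log2 intensity was 7.86 ± 0.0736 with Ube2o shRNA and 9.81 ± 0.0886 with GFP shRNA (SD, n = 3 each), a log2 change of -1.95 (SE 0.11, 3.85-fold, limma adjusted p = 4.66e-09). The gene lies on mouse chromosome 6 (GRCm38.p6, 92772699 to 92944450). Its brightest probe is paired with the symbol in the platform annotation but with no accession. The other Adamts9 probes lay near background with log2 changes of -0.10 and -0.38, and did not pass (limma adjusted p = 0.769 and 0.0791). The fall of Adamts9 therefore rests on 1 probe, and with the mean of its 3 probes the log2 change was -0.81 (limma adjusted p = 0.0003601), smaller than that of Mmp9.

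Adamts7, which cleaves cartilage oligomeric matrix protein, gave signals of 201, 214 and 215 with Ube2o shRNA, against 291, 328 and 361 with GFP shRNA. The groups did not overlap. Its log2 change was -0.79 (SE 0.12, 1.73-fold, limma adjusted p = 0.000368). It lies on chromosome 9 (90162904 to 90200102). The remaining bright ADAMTS members missed the threshold, with log2 changes of 0.07 for Adamts1, -0.06 for Adamts4, 0.12 for Adamts10 and -0.27 for Adamts12. Adamts12 lay lower on all 3 Ube2o shRNA arrays, and its 95% interval ran from -0.51 to -0.03 before any adjustment. It passed without background correction and in the authors' series matrix values (limma adjusted p = 0.03856 and 0.04347). The series matrix ranks the probes of each array almost as the uncorrected intensity does (lowest Spearman correlation 0.999999). These 2 settings are therefore not separate support, here or for the members below. Adamts12 lies on chromosome 15, where 51 of 375 genes above background were lower with Ube2o shRNA and 9 higher. Adamts15 was above background on 2 GFP shRNA arrays and on no Ube2o shRNA array.

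**Figure D2:**
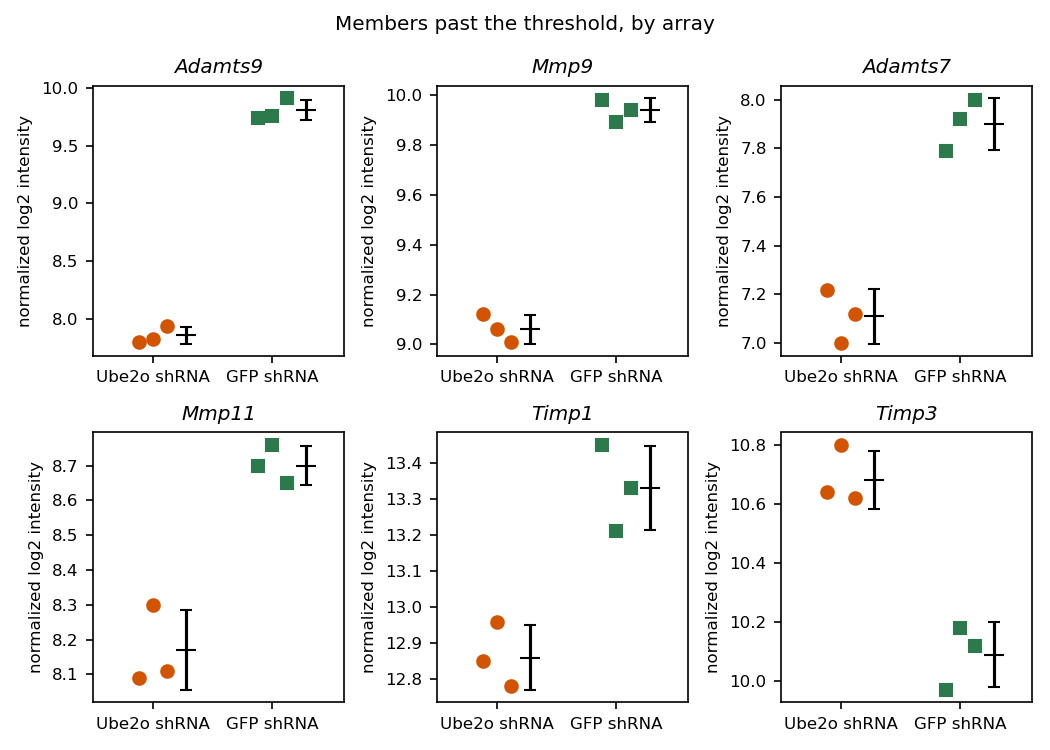
Normalized log2 intensity on each array for the 6 members past the threshold, with Ube2o shRNA as circles and GFP shRNA as squares. Bars give the mean and SD of 3 arrays, each panel has its own vertical scale, and none of the 6 genes shows overlap between groups.

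Of the 9 secreted MMPs, again a small group, 2 fell (22.2%, where 3.96% of all genes were lower) and 7 did not pass. Mmp9, the gelatinase that degrades denatured collagen and basement membrane collagen, gave signals of 541, 663 and 575 on Ube2o shRNA arrays and 1052, 1071 and 1178 on GFP shRNA arrays. All Ube2o shRNA values lay below all control values. The normalized log2 means were 9.06 ± 0.0569 and 9.94 ± 0.0469 (SD, n = 3 each) with Ube2o shRNA and GFP shRNA, and the log2 change was -0.87 (SE 0.11, 1.83-fold, limma adjusted p = 6.86e-05). Mmp9 has 1 probe here and lies on chromosome 2 (164940326 to 164955850). Mmp11, a metalloproteinase of stroma with little activity on the major matrix proteins, gave signals of 302, 421 and 346 with Ube2o shRNA, against 473, 530 and 527 with GFP shRNA. The groups were apart, and the log2 change was -0.54 (SE 0.11, 1.45-fold, limma adjusted p = 0.00824). With a background offset of 16 in place of 50, Mmp11 no longer passed (log2 change -0.6, limma adjusted p = 0.0916).

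Mmp9 is also made by macrophages and neutrophils, so markers of both were read beside it. Of 10 macrophage markers, 2 were above background on all arrays, Aif1 and Lyz2, and 5 were above background on none, namely Ptprc, Adgre1, Cd68, Itgam and C1qb. Aif1 fell (log2 change -0.73, limma adjusted p = 0.00312). Lyz2, with a log2 change of -0.19, did not pass (limma adjusted p = 0.475). The log2 changes of the 9 macrophage markers that did not pass ran from -0.19 for Lyz2 to 0.29 for C1qa. The summed normalized level of this list, on a linear scale, lay between 1194 and 1243 on Ube2o shRNA arrays and between 1261 and 1407 on GFP shRNA arrays. Of 6 neutrophil markers with a probe, S100a8 alone was above background on all arrays, and it fell (log2 change -1.33, limma adjusted p = 6.28e-06). S100a9 and Cxcr2 were above background on no array. The 5 neutrophil markers other than S100a8 did not pass, with log2 changes from -0.07 for S100a9 to 0.23 for Elane. The summed level of the neutrophil list, S100a8 included, lay between 506 and 546 on Ube2o shRNA arrays and between 624 and 765 on GFP shRNA arrays. The part of such cells in the change of Mmp9 was not tested. Fewer cells of a type and less RNA per cell cannot be told apart in these bulk samples.

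Mmp2, the other gelatinase, had normalized log2 intensities of 13.29, 13.20 and 13.43 with Ube2o shRNA and 13.35, 13.45 and 13.43 with GFP shRNA. The groups overlapped, with a log2 change of -0.10 and a 95% interval from -0.34 to 0.14. Mmp19 was above background on 1 Ube2o shRNA array and all 3 GFP shRNA arrays. It did not pass, and its Ube2o shRNA values were the most spread of all members (SD 0.485). Without Ube2o shRNA replicate 1, the array on which it was above background, Mmp19 passed (limma adjusted p = 0.03729). Both remaining Ube2o shRNA values were below background, so no size is given for that difference.

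The 5 members in the metalloproteinase cluster on chromosome 9 did not pass by their brightest probes. Mmp13, Mmp12, Mmp3, Mmp10 and Mmp8 lie in this order between positions 7272514 and 7568486. Mmp3 encodes a stromelysin with a broad range of matrix substrates, Mmp10 its close relative, and Mmp13 a collagenase that cuts fibrillar collagen. The stretch of 150 bases before the RefSeq start of these 3 genes is shown because it holds the same pair of short motifs in the same order. Capitals mark TGACTCA or TGAGTCA, which the AP-1 transcription factors bind, and TATAAA, the core promoter element. The windows are chr9:7502192-7502341 (plus strand) for Mmp10, chr9:7445672-7445821 (plus strand) for Mmp3 and chr9:7272364-7272513 (plus strand) for Mmp13, in RefSeq's GRCm38.p6.
Mmp10: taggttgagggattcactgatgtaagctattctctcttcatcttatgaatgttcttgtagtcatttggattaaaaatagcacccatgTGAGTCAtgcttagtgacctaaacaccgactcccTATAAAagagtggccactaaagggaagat
Mmp3: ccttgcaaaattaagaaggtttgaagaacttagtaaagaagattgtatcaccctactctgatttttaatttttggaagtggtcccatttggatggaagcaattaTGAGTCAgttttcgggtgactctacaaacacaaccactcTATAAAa
Mmp13: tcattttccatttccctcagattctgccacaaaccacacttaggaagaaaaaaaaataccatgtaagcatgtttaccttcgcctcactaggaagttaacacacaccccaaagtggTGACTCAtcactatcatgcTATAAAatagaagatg

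The search covered the window from 250 bases before to 50 bases after each RefSeq start, on both strands. The AP-1 motif began at positions -63, -46 and -35 of Mmp10, Mmp3 and Mmp13, counted back from the start. It was found in 5 of the 28 windows of the 26 members with a promoter entry, and in 5.2% of all 32851 promoter windows. The 5 belong to these 3 genes, Mmp12 and Plaur. A window at an internal Mmp12 start holds the pair in the same order too. There the AP-1 motif is at -44 and TATAAA just past that start. The window at the outermost Mmp12 start holds neither motif. The TATAAA element was in 6 of the 28 member windows and in 13.6% of all windows. A match is a description of the letters and was not tested as a binding site.

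Mmp3 has 3 probes, all above background on every array, and they differed in their call. The brightest gave signals of 2821, 4328 and 3335 with Ube2o shRNA and 2864, 3349 and 3681 with GFP shRNA, so that the groups overlapped (log2 change 0.18, limma adjusted p = 0.519). The next gave 1435, 1794 and 1549 with Ube2o shRNA against 1233, 1317 and 1429 with GFP shRNA. The dimmest gave 879, 917 and 1039 with Ube2o shRNA against 740, 743 and 778 with GFP shRNA. Both of these lay higher on all 3 Ube2o shRNA arrays and passed, with log2 changes of 0.40 and 0.48 (limma adjusted p = 0.041 and 0.0308), where 2.27% of all probes were higher and 2.69% lower. All 3 probes are paired with the same transcript accession. With the mean of a gene's probes in place of the brightest, Mmp3 passed (log2 change 0.35, limma adjusted p = 0.04203).

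Mmp10 had signals of 168, 190 and 182 with Ube2o shRNA, all just above background, and of 166, 146 and 167 with GFP shRNA, none of them above background. It was at least 1.11-fold higher, comparing the Ube2o shRNA mean with the higher of the dimmest detected value and its own value on each control array, and did not pass (limma adjusted p = 0.0532). Mmp13 had signals of 218, 236 and 246 with Ube2o shRNA and of 188, 198 and 235 with GFP shRNA. After normalization every Ube2o shRNA array lay above every control, with a log2 change of 0.39 that did not pass (limma adjusted p = 0.0903). Mmp13 passed in the authors' series matrix values (limma adjusted p = 0.04528). It also passed with probes near background left out of the fit (limma adjusted p = 0.03706). That filter asked for 3 arrays above background, which Mmp10 met through the Ube2o shRNA arrays alone, so its result there is no support. Mmp10 also passed with array weights (log2 change 0.42, limma adjusted p = 0.03785) and with a gene's probes averaged. In both fits its GFP shRNA signals were still not above background. The dimmer Mmp13 probes lay near background. Mmp8, a neutrophil collagenase, and Mmp12, the macrophage elastase, were above background on no array.

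**Figure D3:**
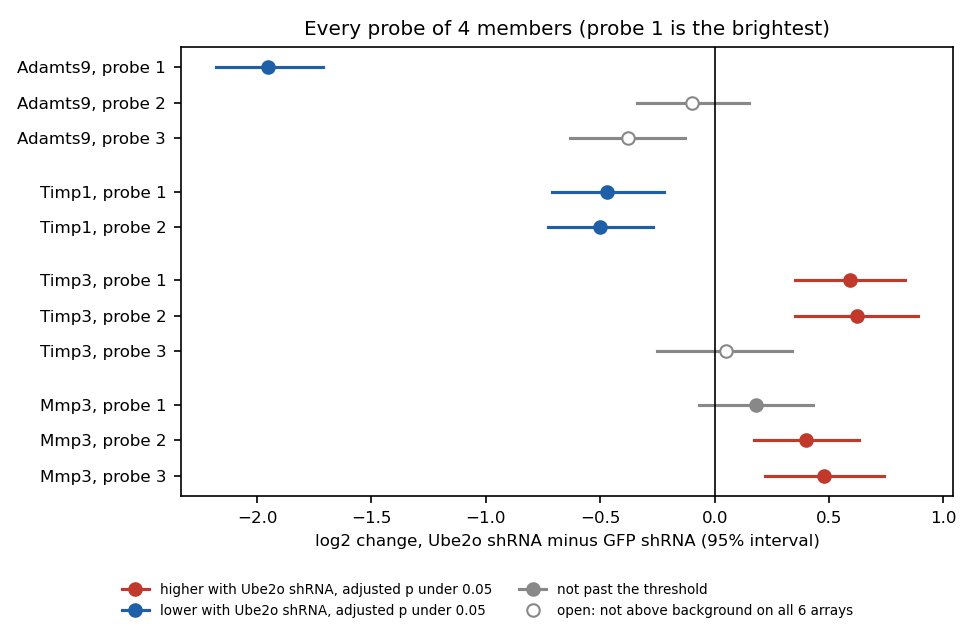
Log2 change (Ube2o shRNA minus GFP shRNA, horizontal axis, with 95% intervals) of every probe of Adamts9, Timp1, Timp3 and Mmp3, with probe 1 the brightest. Both Timp1 probes lie at or near -0.5, the Timp3 probes above background at 0.59 and 0.62, and the Mmp3 probes at 0.18, 0.40 and 0.48.

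None of the 5 cell-bound MMPs with a probe passed. Mmp14, the membrane-type enzyme that cuts collagen at the cell surface and activates the proform of MMP2, had normalized log2 intensities of 12.94, 12.76 and 12.81 with Ube2o shRNA, against 12.41, 12.53 and 12.63 with GFP shRNA. All Ube2o shRNA values lay above all controls. Its log2 change was 0.31 (95% interval 0.07 to 0.56, limma adjusted p = 0.151). It passed without background correction and in the authors' series matrix values (log2 changes of 0.31 and 0.29, limma adjusted p = 0.01458 and 0.02389). Its dimmer probe, above background on no array, had a log2 change of -0.24. Mmp24 had a log2 change of -0.21 and Mmp23 of 0.03. Mmp16 was above background on no array, and Mmp17, which is held at the membrane by a lipid anchor, on the 3 GFP shRNA arrays alone.

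Of the 5 inhibitors, 1 rose, 1 fell and 3 did not pass. In so small a group each call makes up 20%, where 2.92% of all genes were higher and 3.96% lower. Timp3, which binds to the matrix and also inhibits ADAM17 and several ADAMTS enzymes, gave signals of 1415, 2034 and 1572 with Ube2o shRNA and 1046, 1296 and 1321 with GFP shRNA. Every Ube2o shRNA array lay above every control. Its normalized log2 means were 10.68 ± 0.0977 with Ube2o shRNA and 10.09 ± 0.11 with GFP shRNA (SD, n = 3 each), a log2 change of 0.59 (SE 0.12, 1.51-fold, limma adjusted p = 0.00454). The next probe of Timp3 passed as well (0.62, limma adjusted p = 0.00694), and the dimmest, near background, did not (0.05). With the offset of 16, Timp3 no longer passed (log2 change 0.61, limma adjusted p = 0.09004). The gene lies on chromosome 10 (86300412 to 86349505).

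Timp1, a secreted inhibitor that binds the proform of MMP9, gave signals of 6352, 8656 and 6744 with Ube2o shRNA and 11528, 9696 and 11303 with GFP shRNA. All Ube2o shRNA values lay below all controls. The log2 change was -0.47 (SE 0.12, 1.38-fold, limma adjusted p = 0.0231), and that of its other probe was -0.50 (limma adjusted p = 0.0101). Timp1 lies on chromosome X (20870166 to 20874737), where 72 of 296 genes above background were lower with Ube2o shRNA and 13 higher, with a median log2 change of -0.191. With that median subtracted, an alternative chosen after seeing the data, the log2 change of Timp1 was -0.28 (limma adjusted p = 0.2121). Timp1 also did not pass without any 1 of 4 arrays, Ube2o shRNA replicates 1 and 3 and GFP shRNA replicates 1 and 3 (limma adjusted p from 0.07114 to 0.09873). With the offset of 16 its limma adjusted p was 0.166. It passed under 11 of 17 alternatives, the fewest of the 6.

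The promoters of the inhibitors that moved, and of Adamts9, are shown because they lack the paired motifs of the chromosome 9 genes. Here capitals mark matches on either strand to GGG, any 5 bases and CC, a loose form of the NF-kB motif. It is held by 50.8% of all promoter windows and 20 of the 28 member windows. Matches of this motif overlap each other in Timp1. The windows are chr10:86300262-86300411 (plus strand) for Timp3, chrX:20870016-20870165 (plus strand) for Timp1 and chr6:92943535-92943684 (minus strand) for Adamts9, in RefSeq's GRCm38.p6.
Timp3: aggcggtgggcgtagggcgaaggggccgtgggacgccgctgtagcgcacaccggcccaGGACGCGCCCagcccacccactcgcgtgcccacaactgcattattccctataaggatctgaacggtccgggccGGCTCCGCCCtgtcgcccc
Timp1: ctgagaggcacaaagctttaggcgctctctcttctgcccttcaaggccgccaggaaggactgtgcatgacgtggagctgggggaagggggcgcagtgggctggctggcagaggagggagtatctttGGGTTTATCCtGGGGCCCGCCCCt
Adamts9: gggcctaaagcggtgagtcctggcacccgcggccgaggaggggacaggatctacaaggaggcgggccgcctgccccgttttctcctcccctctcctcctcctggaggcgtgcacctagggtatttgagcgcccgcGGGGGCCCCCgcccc
None of these 3 windows, or that of Mmp11, holds an AP-1 motif or TATAAA, which says only that those letters are absent there. The Adamts9 window lies inside the gene span given above, so it precedes an internal start and not the outermost one. Mmp9 and Adamts7 had no promoter entry.

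Timp2, which takes part with MMP14 in the activation of proMMP2, had normalized log2 intensities of 12.85, 12.80 and 12.81 with Ube2o shRNA, against 12.94, 13.04 and 13.12 with GFP shRNA. The Ube2o shRNA values were all lower, and the change did not pass (log2 change -0.21, 95% interval -0.45 to 0.02, limma adjusted p = 0.37). Reck, a membrane-anchored inhibitor of several MMPs, had a log2 change of 0.01 with an interval from -0.24 to 0.27. Timp4 was above background on no array.

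None of the 6 ADAM members with a probe passed. The log2 changes ran from -0.29 for Adam15 to 0.19 for Adam8. Adam15 lay lower on all 3 Ube2o shRNA arrays. It passed without background correction and in the authors' series matrix values (limma adjusted p = 0.02132 and 0.0245). Adam10, which sheds Notch and cadherins, had a log2 change of 0.13 and Adam17, which releases TNF from the cell surface, of 0.17. Adam17 lay higher on all 3 Ube2o shRNA arrays. It lies on chromosome 12, where the median log2 change of genes above background was 0.289, and its own was -0.12 with that median subtracted. Adam9 had a log2 change of 0.08, with a 95% interval from -0.17 to 0.34.

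None of the 7 members of the plasminogen, serpin and HtrA group passed. Plau, which encodes urokinase, had normalized log2 intensities of 7.82, 8.03 and 7.99 with Ube2o shRNA and 8.35, 8.26 and 8.32 with GFP shRNA. The values of the groups did not overlap, and the log2 change was -0.37 (95% interval -0.60 to -0.13, limma adjusted p = 0.0768). Plat, the tissue plasminogen activator gene, had a log2 change of -0.31 and lay lower on all 3 Ube2o shRNA arrays. Plaur, the urokinase receptor gene, lay on the other side, higher on all 3 arrays with a log2 change of 0.31 (95% interval 0.08 to 0.55, limma adjusted p = 0.141). All 3 of these genes passed without background correction, in the deposited series matrix and with probes near background left out. Their limma adjusted p then lay between 0.01331 and 0.04999.

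Serpine2, an inhibitor of thrombin and plasminogen activators, had normalized log2 intensities of 13.70, 13.63 and 13.61 with Ube2o shRNA and 13.70, 13.78 and 13.76 with GFP shRNA. The groups touched, and the 95% interval of the log2 change of -0.10 ran from -0.33 to 0.13. Serpinf1, an antiangiogenic serpin without inhibitory activity, and Serpinh1, the collagen chaperone of the endoplasmic reticulum, had log2 changes of -0.15 and -0.16. Htra1, a secreted serine protease, had a log2 change of -0.27 (95% interval -0.50 to -0.03, limma adjusted p = 0.229).

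**Figure D4:**
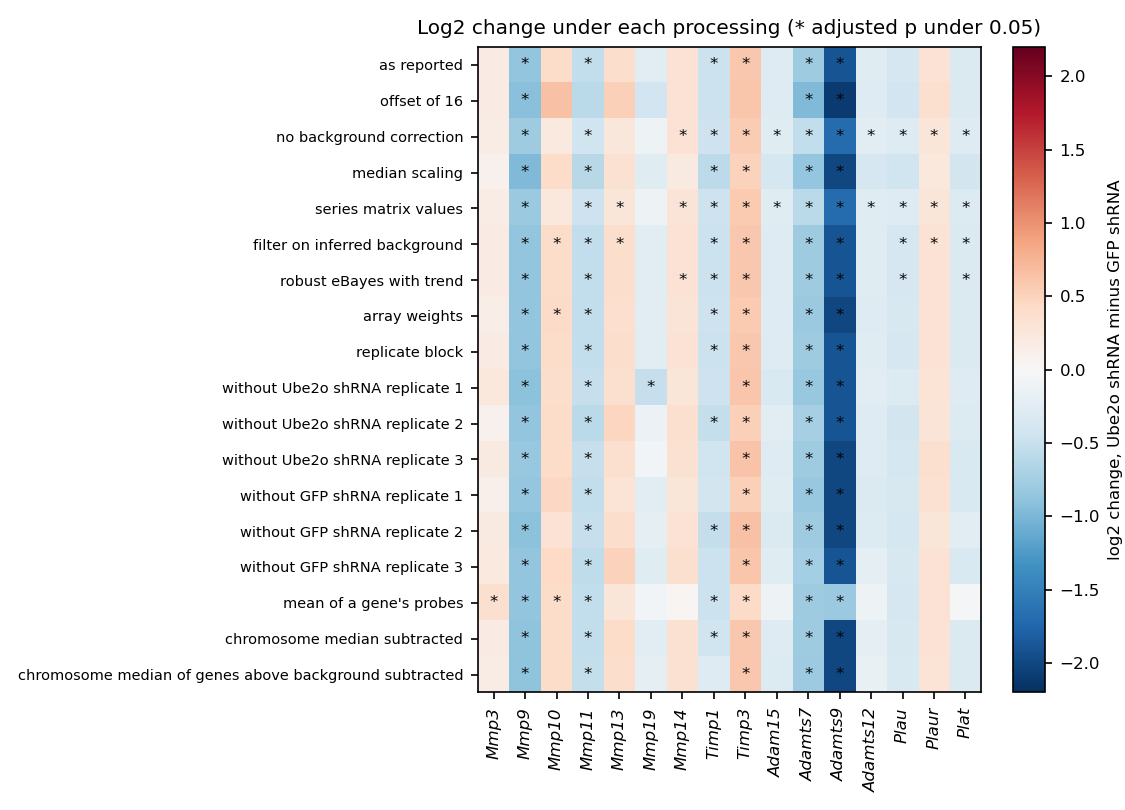
Log2 change (colour) of each member that passed the threshold under at least 1 processing, with processing settings down the page and genes across. An asterisk marks a limma adjusted p below 0.05. Adamts9, Mmp9 and Adamts7 carry one in every row, and Timp1 loses it in 6 rows.

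Around these members, 102 further genes of matrix turnover had a probe, of which 7 fell, 7 rose and 88 did not pass. The shares, 6.86% in each direction, stand against 3.96% of all genes lower and 2.92% higher. The list holds genes that earlier work on these samples had already shown to fall, so its counts are no independent evidence of a direction. None of 8 further MMP genes and none of 11 genes of collagen and proteoglycan substrates passed, the log2 changes of the substrate genes running from -0.46 to 0.45. Among further ADAM and ADAMTS genes, Adam23, an ADAM without protease activity, fell by 1.23 on the log2 scale (SE 0.12, limma adjusted p = 2.42e-06) and Adamts16 fell by 0.59. Adamtsl5, related to ADAMTS proteins but without a protease domain, rose by 0.79 (SE 0.11, limma adjusted p = 0.000219).

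Of 25 further genes of the plasminogen system, serpins and serine proteases, 2 fell, 1 rose and 22 did not pass. The falls make up 8% and the rise 4%, where 3.96% of all genes were lower and 2.92% higher. Slpi, a secreted inhibitor of leukocyte serine proteases, gave signals of 164, 226 and 194 with Ube2o shRNA and 1376, 992 and 1013 with GFP shRNA, a log2 change of -3.05. Serpina3n was above background on no Ube2o shRNA array and all GFP shRNA arrays, and was at least 1.37-fold lower (limma adjusted p = 0.00076). Serping1, the inhibitor of complement protease C1, rose by 0.57 (limma adjusted p = 0.00858). Of 14 further inhibitors and modulators of MMPs, 1 fell, 1 rose and 12 did not pass, which is 7.14% of that list in each direction. Lcn2, a lipocalin that forms a complex with MMP9 protein, gave signals of 286, 374 and 313 with Ube2o shRNA and 7303, 7205 and 6170 with GFP shRNA. That fall, -4.67 on the log2 scale, is the largest on the lists followed here. Cd109, a membrane relative of alpha-2-macroglobulin, rose by 0.41 (limma adjusted p = 0.0439).

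Of 14 cathepsin, legumain and cystatin genes, 3 rose and 1 fell. The rises make up 21.4% of this list and the fall 7.14%, where 2.92% of all genes were higher and 3.96% lower. This list too was chosen with earlier results of these data known, so its shares are no independent evidence of a direction. Ctsk, encoding the collagen-degrading cathepsin K, gave signals of 997, 1308 and 1216 with Ube2o shRNA and 869, 944 and 977 with GFP shRNA, a log2 change of 0.47 (SE 0.11, limma adjusted p = 0.0156). Every Ube2o shRNA array lay above every control. Ctsh rose by 0.47 and Lgmn, an asparaginyl endopeptidase of lysosomes, by 0.53, and Ctsz fell by 0.52 (limma adjusted p = 0.0294, 0.0162 and 0.0111). Lgmn lies on chromosome 12, where 94 of 307 genes above background were higher and 4 lower. The median log2 change of those genes was 0.289. Whether the rise of Lgmn is part of that shift was not tested. Among procollagen processing genes, Pcolce2, which enhances removal of the C-propeptide, fell by 0.41 by its brightest probe (limma adjusted p = 0.0398). Its dimmer probe, which every array measured above background, showed no fall (log2 change 0.03, limma adjusted p = 0.946). The 2 probes therefore disagree. Tll1, a procollagen proteinase gene, was above background on 2 Ube2o shRNA arrays and no GFP shRNA array, and was at least 1.01-fold higher (limma adjusted p = 0.0458). Dimmer probes did not pass for Adam23, Adamts16, Serping1, Tll1, Ctsh and Cd109, and the dimmer probe of Ctsz passed in the same direction.

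**Figure D5:**
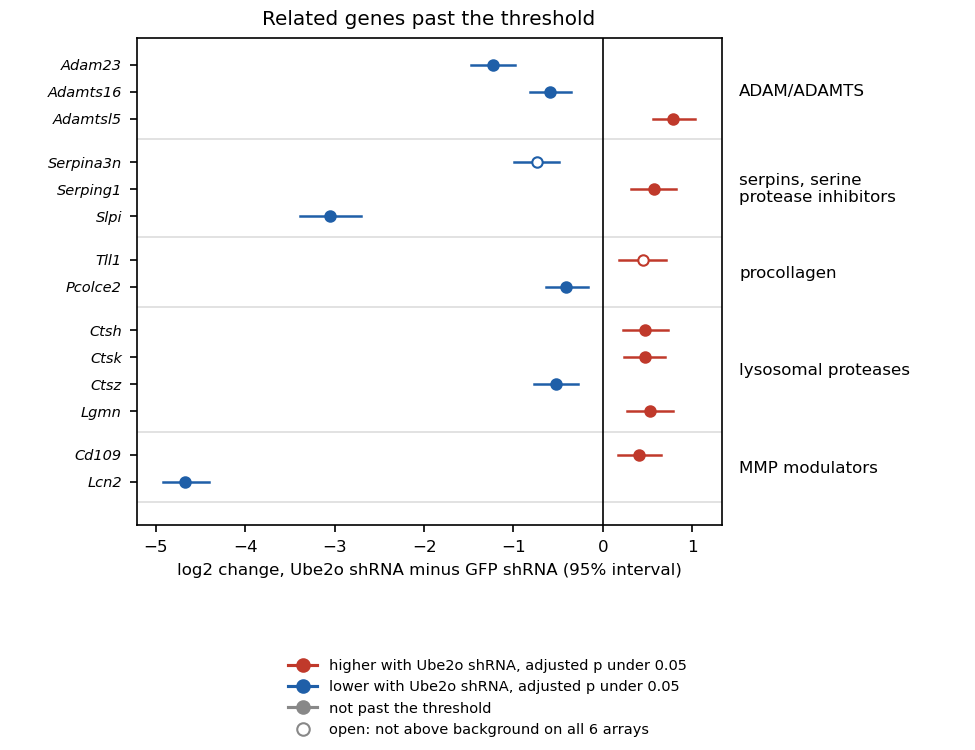
Log2 change (Ube2o shRNA minus GFP shRNA, horizontal axis, with 95% intervals) of the 14 related genes past the threshold, grouped by role. Lcn2 at -4.67, Slpi at -3.05 and Adam23 at -1.23 lie farthest below 0, and Adamtsl5 at 0.79 is the largest rise.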

How the data were processed

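Total RNA was converted to biotinylated cRNA with an Illumina TotalPrep kit, per the labels' protocols. The authors' deposited files hold linear intensity per probe, not normalized, and a series matrix of log2 values whose columns share 1 distribution. How both were made is not given in the sources used here. From the intensity, background was corrected with normexp (saddle, offset 50), followed by quantile normalization and log2, since no detection p-values were in the table. All 45281 probes were fitted with limma 3.58.1 in R 4.3.3 (lmFit, eBayes, two-sided, Benjamini-Hochberg). Groups were taken from the titles. Background was the mode of an array's log2 signal with the spread below it, at p 0.05. Symbols came from the platform annotation, updated through RefSeq (GRCm38.p6): 35784 probes had 1 symbol, 0 several and 9497 none. The procedure was tested on simulated data. The members, lists and rule for named genes (all members, and called genes of related lists) were chosen with earlier results of these data known. Protein sequences were not used here. Same-numbered arrays of the groups did not deviate together (correlations -0.03 to 0.016), so the numbers were not taken as pairs.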

Additional observations from a re-analysis of the deposited data

How the results depend on the processing

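The falls of Adamts9, Mmp9 and Adamts7 passed under all 17 alternatives, with log2 changes from -2.1 to -0.81, from -0.97 to -0.79 and from -0.97 to -0.55. Mmp11 and Timp3 passed under 16 and Timp1 under 11. The counts of members higher and lower were 0 and 3 with the background offset of 16, 3 and 9 when background correction was skipped, 4 and 9 from the deposited series matrix, 4 and 7 with probes near background left out (the 4 include Mmp10, which met that filter through the Ube2o shRNA arrays alone), 2 and 7 with robust eBayes, 2 and 5 with array weights, and 3 and 5 with a gene's probes averaged, against 1 and 5 as reported. With 1 array left out, 1 member was higher and 4 or 5 lower. With the replicate number as a block, 1 was higher and 5 lower, and the call of no member changed. Over all probes, 1026 were higher and 1220 lower as reported, 179 and 405 with the offset of 16, 2025 and 1944 with no background correction, and 1735 and 1785 with the filter. They were 2011 and 1930 in the series matrix, 1647 and 1688 with robust eBayes, and 1097 and 1270 with array weights. With a gene's probes averaged, 580 were higher and 719 lower, counted over averaged genes and unnamed probes. The member counts are to be read beside these whole-array counts. No called member turned round under any alternative. Uncalled members near 0 did: Mmp23 (-0.073), Reck (-0.075), Adam9 (-0.0076) and Adamts1 (-0.017) with median scaling, Reck with array weights (-0.015), Mmp16 (0.14) and Reck (-0.076) with probes averaged, and Mmp23 (-0.028) and Reck (-0.046) with chromosome medians subtracted. With medians over genes above background alone, chosen after seeing the data, Mmp23 (-0.13), Reck (-0.14) and Adam17 (-0.12) did. With 1 array left out, values ran from -0.072 to 0.18 for Mmp8, -0.098 to 0.054 for Mmp16, -0.041 to 0.11 for Mmp23, -0.065 to 0.11 for Reck, -0.15 to 0.1 for Adam12 and -0.017 to 0.12 for Adamts1. The causes were not tested. Members near background are compressed by the offset, and the number of arrays limits small changes.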
